A study of Equus caballus with 32 samples.

Results

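Gene expression in the synovium of horses treated with iPAAG, a polyacrylamide gel for injection into joints, was compared between the start of an induced osteoarthritis and week 10. The members are the 16 libraries of the 8 horses whose sample titles carry iPAAG (horses 3, 5, 6, 7, 8, 12, 14 and 17), 1 library per horse and week, out of 32 libraries from 16 horses. They were chosen by their titles alone, and the 2 libraries of a horse were paired by its code. The other 8 horses are labelled Control and serve here as a reference. The series title gives the hydrogel as 2.5% polyacrylamide, and the design text describes a randomized, placebo-controlled study. What the control horses received, when the gel was injected, and the age, sex and breed of the horses are not stated in the labels.

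All 16 horses shared the same model. Per the labels' protocols, an 8 mm fragment of bone and cartilage was made in one middle carpal joint, the gap around it was widened to 15 mm, and the opposite joint had a sham arthroscopy. Synovium was taken through the arthroscope before the fragment was made and again immediately after death at week 10. It was digested with collagenase for 60 minutes, strained and spun, so the RNA comes from the cells recovered by that step and not from intact tissue. The labels do not say from which of the joints a library came. The passage of time, the fragment or sham surgery, the hydrogel and the way of collection, by arthroscopy or after death, all separate week 10 from week 0. So does the induced osteoarthritis, if the joint sampled was the one with the fragment. All of these cannot be told apart within these horses.

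Synovium lines the joint capsule. Its surface layer is built of fibroblasts, which secrete hyaluronan and the lubricating protein lubricin into the joint fluid, and of resident macrophages, which clear debris. Beneath it lies connective tissue with blood vessels, fat and nerves. In osteoarthritis this membrane can thicken, become infiltrated and turn fibrotic. Injected polyacrylamide hydrogel is known to be taken up into the synovial lining and to stay there. In RNA from such a mixture of cells, fewer cells of a type and less RNA per cell cannot be told apart.

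Genes are given by their Ensembl identifiers. The files do not pair these with gene names, and 0 of 19418 identifiers could be matched to a symbol in the reference table used here. No gene is therefore assigned a function, a pathway or a cell type, and the synovial origin of the libraries could not be checked against marker genes.

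The 16 libraries held 43565800 ± 5082530 counts at week 0 and 40149800 ± 7710800 counts at week 10 (SD, n = 8), and ranged from 28550430 to 52843736. A week 0 library detected 16170.2 ± 412 genes by at least 1 count and a week 10 library 16471.5 ± 578 (SD, n = 8). The 10 highest genes took 12.4% ± 2.79 and 12.7% ± 2.59 of the counts (SD, n = 8). None of these measures passed an exact two-sided sign-flip test over the 8 horses, which can reach a p of 0.0078125 at the lowest. The exact p was 0.375 for total counts, 0.328 for genes detected and 0.844 for the 10 highest genes, or 0.5625, 0.5625 and 0.844 after adjustment over the 3 measures.

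On the first principal component of log2 levels, which held 24.7% of the variance, every week 0 library lay below every week 10 library. Week 0 libraries lay from -70.1 to -14.7 and week 10 libraries from 2.59 to 70.3. The week 0 library of horse 7 stood apart on the second component, which held 18.4% of the variance. It lay at 95.6, against -37.1 to 9.09 for the other 7 week 0 libraries. It also had the fewest counts of the week 0 libraries, 32117791, and the largest share in its 10 highest genes, 18.1%. The fitted values of the 4 genes described one by one, the count of genes called and the spread between horses are given with and without horse 7.

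**Figure D1:**
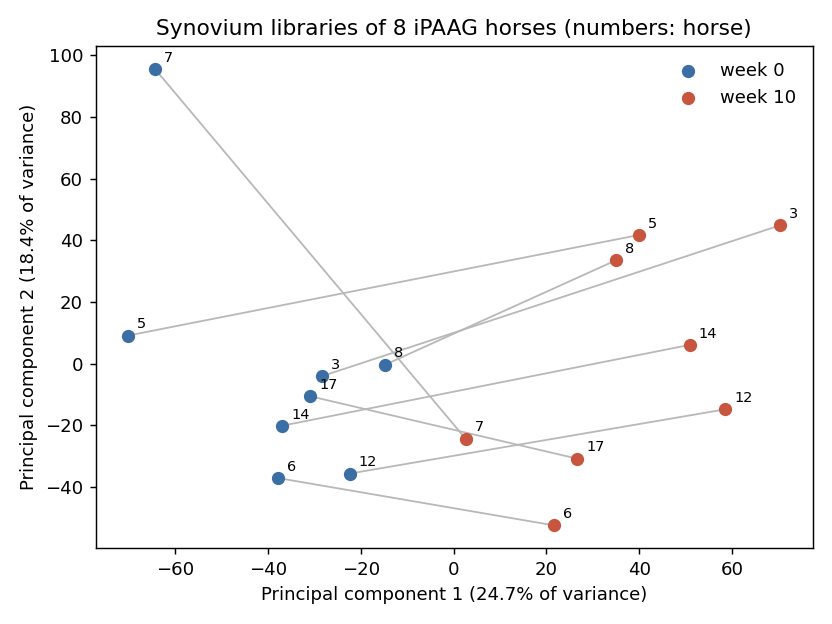
Principal components 1 (horizontal axis, 24.7% of the variance) and 2 (vertical axis, 18.4%) of log2 CPM in the 16 iPAAG libraries, with week 0 in blue, week 10 in red and a grey line joining the libraries of each numbered horse. Every line runs from left to right, and the week 0 library of horse 7 lies alone at 95.6 on the vertical axis.

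Of 14690 genes with enough counts to be tested, 1233 were higher and 1160 were lower at week 10 in the iPAAG horses, 2393 in all or 16.3% of the genes tested, 8.39% upward and 7.9% downward (edgeR quasi-likelihood test with the horse as a block, Benjamini-Hochberg adjusted p under 0.05). Rises were the larger changes by their median and by the counts at 2-fold and 4-fold, but not at 8-fold. The median log2 fold change was 0.95 among the genes that rose and -0.69 among those that fell, while the median over all genes tested was 0.0019. At least 2-fold changes made up 47.3% of the rises (583 genes) and 28.2% of the falls (327 genes), 910 genes or 6.19% of those tested. Changes of at least 4-fold were seen in 141 rising and 74 falling genes. At 8-fold or more the numbers were 24 and 27.

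The size of the count depended on the tool and on which horses entered. It was 3943 with DESeq2 and 587 when the 16 control libraries were fitted together with these 16. It was 1310 without horse 5, 1497 without horse 17, 1538 without horse 14 and 1546 without horse 12, against 3302 without horse 7.

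**Figure D2:**
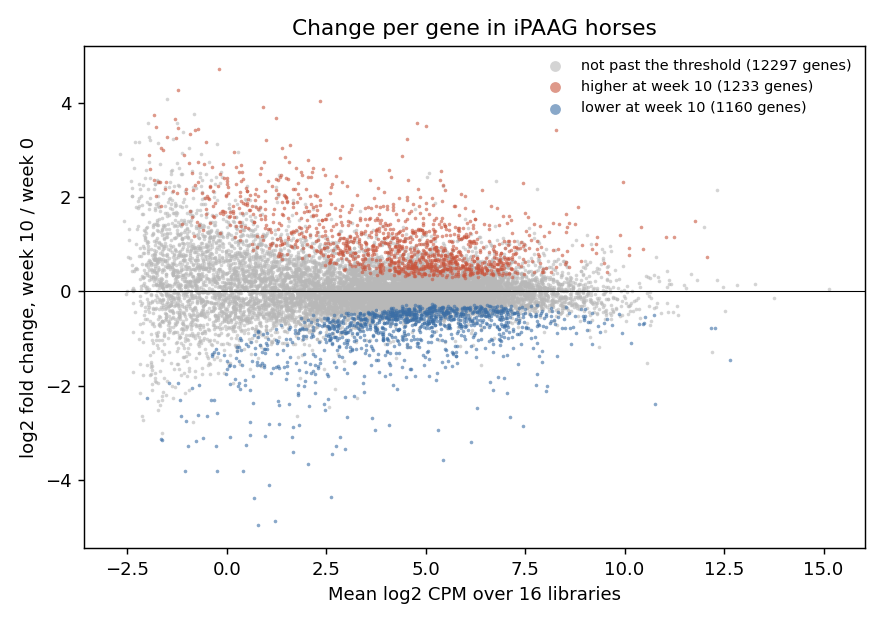
Each point is 1 of 14690 genes, with its mean log2 CPM over the 16 libraries on the horizontal axis and its log2 fold change from week 0 to week 10 on the vertical axis. The 1233 genes that rose are red, the 1160 that fell are blue and the rest are grey; low genes needed larger changes to pass.

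Direction was shared by most horses for the genes that passed. Of the 2393, 1538 moved the same way in 8 of 8 horses, 793 in 7 and 62 in 6. These genes were chosen by a test on the same changes, which makes such agreement likely. Among all 14690 genes tested, 1885 moved the same way in 8 of 8 horses, or 12.8%, 3158 in 7 and 3612 in 6. Agreement of 8 of 8 horses was met by 68.2% of the genes that fell and 60.6% of the genes that rose. A stricter separation, with every week 10 library beyond every week 0 library, was met by 182 genes upward (1.24% of those tested) and 188 downward (1.28%). Of these, 178 and 179 also passed the test.

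The 4 genes described one by one had the largest changes among 1954 genes. These were called at the threshold, had a mean log2 level of 2 or more and shared their direction in 7 or 8 of the 8 horses. Levels are CPM, that is counts divided by the library total after TMM scaling and brought to a common size. As these genes were picked for large changes in these horses, the sizes are likely to run high.

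ENSECAG00000014484 rose most. At week 0 its level ran from 0.0314 CPM in horse 7, which is 1 count, through a median of 2.25 to 4.91 CPM in horse 6. At week 10 the range was 4.42 CPM in horse 7 to 52.9 CPM in horse 6, with a median of 25.1. Every horse rose, although the lowest week 10 library lay just under the highest week 0 library. Its fitted change was 4.04 on the log2 scale (SE 0.54, edgeR adjusted p = 0.00198), a 16.5-fold rise. Without horse 7 it was 3.87 (adjusted p = 0.00321). Horses 3 and 7, which started at 10 counts and 1 count, rose the most on the log2 CPM scale with a prior count of 2, by 7.18 and 5.82. Horses 12, 8 and 5 rose the least, by 2.73, 2.78 and 2.90.

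ENSECAG00000003837 was lowest in horse 7 at week 0 as well, at 0.849 CPM, with a median of 12.7 and a highest level of 24.8 CPM. At week 10 it ran from 35.0 CPM in horse 14 to 268 CPM in horse 17, with a median of 112. The weeks did not overlap in the iPAAG horses. The fitted log2 change was 3.57 (SE 0.58, edgeR adjusted p = 0.00423), an 11.9-fold rise. Without horse 7 it was 3.24 (adjusted p = 0.00545). The smallest rise, 1.45 on the log2 scale, was in horse 14. The largest were in horses 7 and 5, at 6.14 and 6.13, the horses with the lowest starting levels.

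ENSECAG00000014031 fell most. Its week 0 level was lowest in horse 8 at 7.62 CPM, had a median of 27.3 and reached 94.1 CPM in horse 5. At week 10 all 8 horses lay between 0.408 and 3.96 CPM, with a median of 1.45. Every horse fell and the weeks did not overlap. The fitted log2 change was -4.38 (SE 0.44, edgeR adjusted p = 0.000924), a 20.8-fold fall. Without horse 7 it was -4.51 (adjusted p = 0.00172). Within horses the change ran from -6.42 in horse 3 to -2.13 in horse 8.

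ENSECAG00000010879 was the least even of the 4. At week 0 it ran from 1.55 CPM in horse 12 to 146 CPM in horse 5, with a median of 11.7, and at week 10 from 0 CPM in horse 12 to 20.8 CPM in horse 7, with a median of 1.52. It fell in 7 horses and was higher at week 10 in horse 7, at 4.18 against 20.8 CPM, and the weeks overlapped. The fitted log2 change was -3.66 (SE 0.97, edgeR adjusted p = 0.0293). This call did not hold when horse 5, 8, 12, 14 or 17 was left out, at adjusted p from 0.0617 to 0.0723, nor without the horse block (adjusted p = 0.0501). Without horse 7 the log2 fold change was -4.28 (adjusted p = 0.00449).

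**Figure D3:**
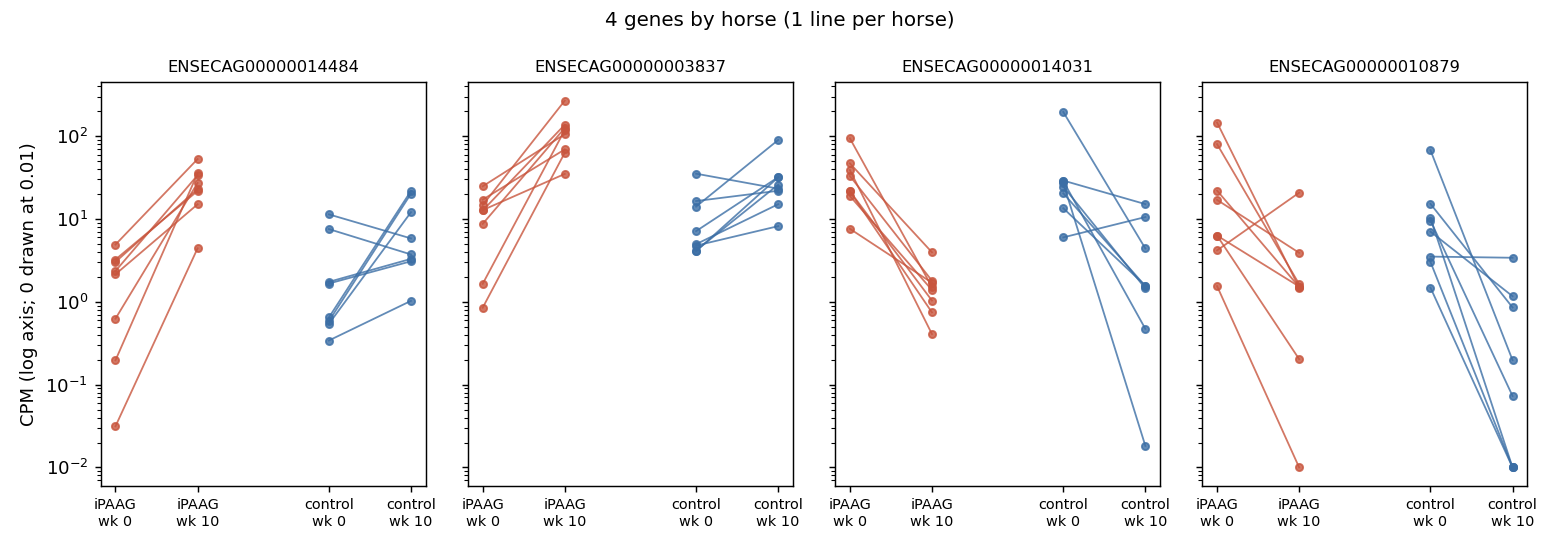
Levels of 4 genes in CPM (vertical log axis, with 0 drawn on the lowest tick) at week 0 and week 10, with 1 line per horse, iPAAG horses in red and control horses in blue. In the iPAAG horses each line of ENSECAG00000014484 and ENSECAG00000003837 rises and each line of ENSECAG00000014031 falls, while ENSECAG00000010879 rises in horse 7 only.

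How often a gene passed rose with its level. Among 1340 genes with a mean under 1 CPM, 54 passed (4.03%), and all 54 of these changes were at least 2-fold. The share was 14.6% of 4014 genes from 1 to 10 CPM and 18.6% of 7444 genes from 10 to 100 CPM. It was 19.6% of the 1892 genes at 100 CPM or more. The balance of directions moved the other way. Rises made up 75.9% of the calls under 1 CPM, 55.0% from 1 to 10, 51.0% from 10 to 100 and 44.5% at 100 CPM or more. Among the most abundant class, 165 genes rose with a median log2 fold change of 0.78 and 206 fell with a median of -0.65.

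The genes that changed made up a sizeable part of the RNA counted. At week 0 the 1233 rising genes took a median of 5.98% of an iPAAG library's counts, from 3.83% in horse 7, with 4.997% the next lowest, to 7.12%, and at week 10 a median of 10.999%, from 8.48% to 13.7%. The 1160 falling genes took a median of 12.4% at week 0, from 11.3% to 15.5%, and of 7.43% at week 10, from 5.53% to 8.87%. The weeks did not overlap on either measure, as the choice of the genes makes likely. The shift was not carried by the 10 most abundant genes of each list. Without them the medians went from 4.59% to 8.08% for the rising genes and from 8.65% to 5.33% for the falling genes. The control horses, whose values did not choose these genes, shifted in the same direction in 8 of 8 horses on both measures. Their medians went from 5.44% to 10.1% for the rising genes and from 12.1% to 6.19% for the falling genes. Without the 10 most abundant genes of each list the direction again held in 8 of 8 control horses. In control horse 11, however, the rising share then went only from 5.15% to 5.37%, against 6.75% to 17.9% with them.

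Horses differed in the size of their change. Among the rising genes the median change within a horse was largest in horse 5, at 1.20 on the log2 scale, and in horse 7, at 1.12, and smallest in horse 8, at 0.54. Among the falling genes it was again largest in horse 5, at -0.95, and smallest in horse 6, at -0.47. In horse 8, 84.5% of the rising genes moved upward, the lowest share of the 8 horses, against 98.8% in horse 5.

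**Figure D4:**
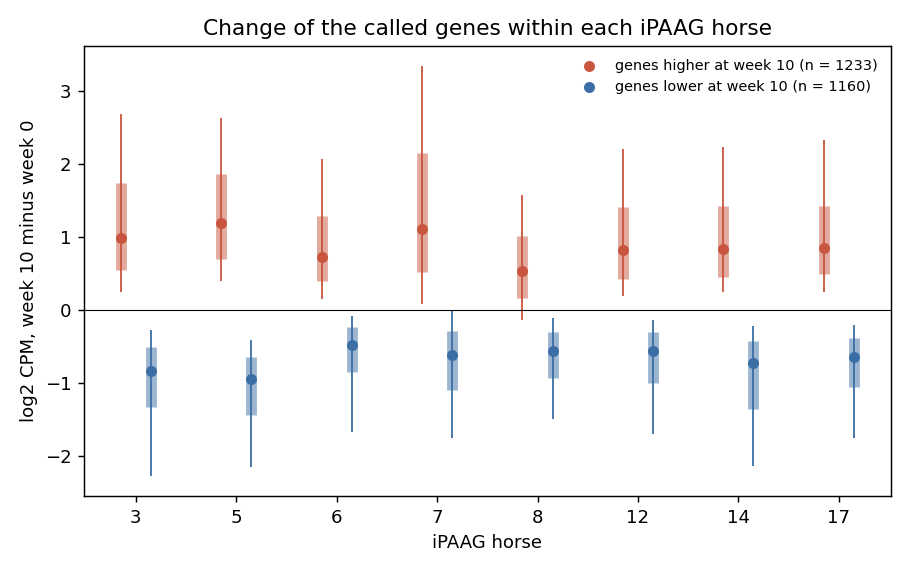
Change in log2 CPM from week 0 to week 10 within each iPAAG horse (vertical axis), for the 1233 genes that rose (red) and the 1160 that fell (blue) in the fit of all 8 horses. Points are medians, thick bars run from the 25th to the 75th percentile and thin lines from the 10th to the 90th, and horse 8 has the smallest median rise at 0.54.

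Those horses also helped to choose the genes, so each horse was read on the genes called in the other 7. The genes called without horse 5 moved in the same direction in horse 5 in 96.4% of cases. The shares were 94.3% for horse 17, 93.2% for horse 14, 92.4% for horse 12, 90.1% for horse 3 and 87.5% for horse 6. In these 6 horses between 65.5% and 75.4% of all genes tested moved in the direction fitted in the others. Horse 8 followed in 76.9% of 1999 genes, with 66.2% over all genes tested. Horse 7 followed in 65.4% of 3302 genes, with 55.6% over all genes tested. Each horse was read on a different list, so these shares are not strictly comparable. The list without horse 5 held 1310 genes, with fitted medians of 1.06 for the rises and -0.82 for the falls. In horse 7 the genes that rose in the other horses had a median change of 0.54, where the fit of the others gave 0.84, and the genes that fell had -0.31 against -0.60.

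The same 2 horses stood lowest when changes were compared gene by gene. Across 14690 genes, which are not independent replicates and share each horse's pair of libraries, the change in horse 7 had a median Pearson's r of 0.13 with the other 7 horses, and a lowest value of -0.11 with horse 3. In horse 8 the median was 0.22. The highest medians were 0.45, in horses 3 and 5.

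The spread between horses was not the same at the 2 weeks. Over all genes tested, the median SD of log2 levels between the 8 horses was 0.339 at week 0 and 0.395 at week 10, and 38.7% of genes were more spread at week 0. For the falling genes the median SD was 0.31 at week 0 and 0.398 at week 10. For the rising genes it was 0.529 at week 0 and 0.456 at week 10, and 55.96% were more spread at week 0. That last difference rested on horse 7. Without it the medians for the rising genes were 0.43 and 0.451, and 44.0% were more spread at week 0, against 31.5% of all genes. No test was made of these spreads.

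The control horses share no library with the iPAAG horses, so they show how the same genes moved in horses without the label iPAAG. Of the 1233 genes that rose, 1213 could be tested in the control arm alone, and 87.5% were also higher there at week 10. Of the 1160 that fell, 1156 could be tested and 98.1% were also lower. Over the 14429 genes tested in both arms the share with the same sign was 73.0%. The median log2 fold change in control horses was 0.54 for the rising genes and -0.84 for the falling genes, where the iPAAG values of the same genes were 0.94 and -0.68. Across all genes tested in the control horses it was -0.11.

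Control horses 2 and 11, whose week 10 libraries detected 12018 and 11373 genes against 16162 to 17410 in the other 6, moved these values. The week 10 library of horse 2 held 5428928 counts, against 24296609 to 54155598 in the other control libraries of that week. That of horse 11 held 28614860 counts, with 24.6% of them in its 10 highest genes. In horse 11 the genes that rose with iPAAG had a median change of -0.12, and in horse 2 of 0.14, against 0.55 to 1.09 in the other 6 control horses. Control horse 9 stood apart on the falling genes, with a median change of -0.20, against -1.34 to -0.59 in the other control horses. It followed the iPAAG direction in 68.2% of the 2393 genes, against 69.7% in horse 2 and 61.0% in horse 11. Its week 0 library held 23088448 counts, with 21.0% of them in its 10 highest genes. Without horses 2 and 11 the control medians were 0.78 for the rising and -0.68 for the falling genes. The shares with the same sign were then 97.1% and 98.1%, against 77.6% of all genes.

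In the control arm fitted alone 755 of 14558 genes passed, or 5.19%. The order of the arms by this count turned round when all 32 libraries were fitted together, with 1700 genes in the control arm and 587 in the iPAAG arm. Of the 755 control genes, 388 were also called in the same direction in the iPAAG horses fitted alone, 163 up and 225 down. That is 51.4% of this control list and 16.2% of the iPAAG list from that arm alone. In the opposite direction the number was 0. Without control horses 2 and 11 the control arm gave 994 genes of 14889 (6.68%), of which 549 were called in the same direction with iPAAG.

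**Figure D5:**
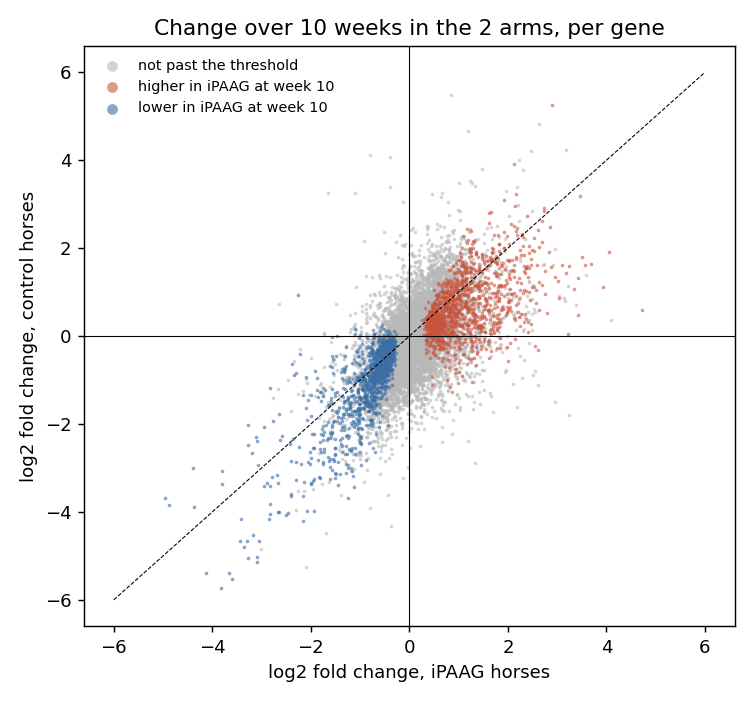
Log2 fold change from week 0 to week 10 in the 8 iPAAG horses (horizontal axis) and in the 8 control horses (vertical axis) for 14429 genes tested in both arms, with genes that rose with iPAAG in red, genes that fell in blue and the others in grey. Most coloured points lie at the lower left and upper right, where both arms moved the same way, and the dashed line marks equal change.

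The 4 genes moved in the control horses as follows. ENSECAG00000014484 had a median of 1.15 CPM at week 0 and 4.78 CPM at week 10 in control horses, and was higher at week 10 in 6 of 8 (log2 fold change 1.90, SE 0.94, edgeR adjusted p = 0.34). It was lower at week 10 in control horses 2 and 11. ENSECAG00000003837 had medians of 6.05 and 24.6 CPM and was higher in 7 of 8 control horses (1.61, SE 0.43, adjusted p = 0.0574). ENSECAG00000014031 had medians of 25.9 and 1.56 CPM and was lower in 7 of 8 (-3.89, SE 1.04, adjusted p = 0.0589), with horse 11 the exception. ENSECAG00000010879 had medians of 8.30 and 0.135 CPM, was lower in 8 of 8 and passed the threshold (-5.40, SE 1.17, adjusted p = 0.0266). In control horse 13 it hardly moved, at 3.52 and 3.40 CPM, and in control horses 2, 11 and 15 it had 0 counts at week 10.

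Passing in 1 arm and not in the other is no test of a difference, so the changes were compared directly over all 32 libraries. The edgeR test of this difference called 0 of 15498 genes, a share of 0%, and its lowest adjusted p was 0.496. That gene was ENSECAG00000000658, with a log2 difference of 2.96 (SE 0.54, edgeR unadjusted p = 3.2e-05). Its log2 fold change was 3.43 in the iPAAG horses and 0.47 in the control horses, each arm fitted alone. As it was picked for the lowest p of 15498 genes, this difference is likely to run high. Without adjustment, 617 genes (3.98%) had a p under 0.05. With 1 horse left out at a time this number ran from 397, without iPAAG horse 17, to 1003, without control horse 9. DESeq2 called 12 genes. Without control horses 2 and 11 the edgeR test again called 0 genes. The median log2 difference over all genes tested was then -0.0049, against 0.123 with them. Among the 2393 genes called in the iPAAG horses, 183 were at an unadjusted p under 0.05, or 7.65%. These genes were chosen on the iPAAG values, which raises that share.

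The largest difference among the 4 genes was 2.26 on the log2 scale, iPAAG minus control, for ENSECAG00000014484 (SE 1.14, unadjusted p = 0.0618). That value includes control horses 2 and 11, in which this gene was lower at week 10, and is not given here without them. For ENSECAG00000003837 it was 1.97 (SE 0.76, unadjusted p = 0.0187). ENSECAG00000014031 differed by -0.53 (SE 1.09) and ENSECAG00000010879 by 1.13 (SE 1.55). The edgeR adjusted p was 0.982 for each of the 4. Of the 2393 genes, 895 (37.4%) had a 95% interval of the difference that lay within 2-fold in either direction, and 1690 (70.6%) within 4-fold. These intervals are not adjusted for the number of genes.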

How the data were processed

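Polyadenylated RNA was sequenced from digested synovium. Per the labels, libraries were made with a poly(A) kit; STAR 2.7.10b, limma 3.62.2 and the build EquCab3.0 are named in the submitters' processing notes, with no role given. How reads were counted, on which annotation and with which strand setting is not given in the sources used here. Overlapping or near-identical genes are therefore uncertain. The authors deposited raw counts, whole numbers per Ensembl gene; 33 values in 6 genes were deposited rounded to 3 significant digits. No libraries were identical.

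From these counts, edgeR 4.0.16 (R 4.3.3) was run on the 16 iPAAG libraries alone, with TMM factors, filterByExpr by week, the horse as a block, glmQLFit and glmQLFTest, and Benjamini-Hochberg adjustment over 14690 genes at a threshold of 0.05. The same fit was made for the control arm, and over all 32 libraries for the difference of changes. P-values are two-sided. A standard error is the log2 fold change over the square root of F. Changes within a horse use log2 CPM with a prior count of 2. The intervals of differences use a t distribution with the unmoderated residual degrees of freedom.

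Titles give the same horse code at both weeks, so the animal pairs the libraries. In the counts, deviations from the week means within a horse correlated with a median of 0.184 (-0.128 to 0.402); 5 of 8 horses exceeded 0.1, and for 4 of 8 the best match of the week 0 library was the horse's own week 10 library.

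Genes were named by a rule: past the threshold, a mean log2 CPM of 2 or more, direction shared by 7 or 8 of 8 horses, then the 2 largest rises and 2 largest falls. The members, rules and lists were chosen with earlier results of these data known. The 25 planned gene lists need symbols and were not run. In simulated counts, 200 genes with a mean log2 CPM of 2 or more were changed, and each value was drawn independently from fitted dispersions. The recovery rates therefore do not cover lower genes or faults that a whole library shares. On simulated counts over 14444 genes, the iPAAG fit recovered 17.9% of changes of 1.5-fold, 71.6% at 2-fold and 98.5% at 4-fold, with 5 false calls. The difference of changes, over 15162 genes, recovered 1.49%, 20.9% and 75.8%. Alternatives were DESeq2 1.42.0, limma-voom (limma 3.58.1) with and without library quality weights, RLE factors, no filter, a filter of 1 CPM in 8 libraries, no block, all 32 libraries, and each horse left out.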

Additional observations from a re-analysis of the deposited data

Results flagged for a closer look

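In groups of 8 values, a value was marked where its gap to the next took an unusually large part of the range. Chance marks about 1 in 20 groups, or 1.5 of the 30 examined, if values spread normally, and 11 were marked. CPM values were taken without logs.

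Horse 7 accounts for 4 of the 11. Its week 0 library had 32117791 counts, against 42373584 to 48919206 in the other iPAAG horses, and lay at 95.6 on the second principal component, against -37.1 to 9.09. At week 10 it had the highest level of both falling genes, 3.96 CPM of ENSECAG00000014031 against 0.408 to 1.80 CPM, and 20.8 CPM of ENSECAG00000010879 against 0 to 3.90 CPM.

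Other iPAAG values were 268 CPM of ENSECAG00000003837 in horse 17 at week 10, against 35.0 to 137 CPM, and 94.1 CPM of ENSECAG00000014031 in horse 5 at week 0, against 7.62 to 47.0 CPM.

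In control horses at week 0, ENSECAG00000003837 stood at 35.2 CPM in horse 11, against 4.09 to 16.5 CPM. Control horse 16 at week 0 had 196 CPM of ENSECAG00000014031, against 6.00 to 29.1 CPM, and 67.6 CPM of ENSECAG00000010879, against 1.48 to 15.2 CPM. At week 10, ENSECAG00000003837 stood at 89.9 CPM in control horse 10, against 8.20 to 31.97 CPM, and ENSECAG00000010879 at 3.40 CPM in control horse 13, against 0 to 1.17 CPM.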

How the results depend on the processing

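The 2393 genes of the iPAAG horses became 3943 with DESeq2, 3622 with library quality weights and 587 over all 32 libraries, and 1310 to 3302 with 1 horse left out at a time. Their signs reversed for 0 genes under every setting run, which choosing them on these data makes likely. The 910 genes changed at least 2-fold became 1368 with DESeq2, 320 over 32 libraries and from 606 to 1039 without each horse. The control count of 755 became 1700 over 32 libraries, 1984 with DESeq2, 1189 with limma-voom, 2601 with quality weights and 266 to 975 without each horse. The difference of changes gave 12 genes with DESeq2, 1 without the block and 0 to 0 without each horse. The cause of these moves was not tested. Without the replicate block the iPAAG count was 2583, of which 2018 were shared; of the named genes, the call of ENSECAG00000010879 was lost (-3.19, adjusted p = 0.0501), as it was over 32 libraries (-3.84, adjusted p = 0.0531). Its adjusted p ranged up to 0.0723 over 17 settings and passed in 10, while the other 3 named genes passed in all 17. Rises outnumbered falls among the iPAAG calls under each setting, from 50.9% to 55.6%. The arms swapped order by count over 32 libraries, 1700 in control against 587 in iPAAG horses. Under 1 CPM 4.03% of genes passed, and the share of this due to depth was not measured.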
